A study of Mus musculus with 4 samples.

Results

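A bidirectional promoter was defined here as the stretch shared by a pair of protein-coding genes that lie head to head on opposite strands, with the minus-strand transcription start site (TSS) upstream of the plus-strand TSS and at most 1000 bp between them. On the autosomes of the mm9 annotation (NCBIM37, GENCODE), 789 such pairs held 1562 genes, which is 7.29% of 21418 autosomal protein-coding genes. On the mm10 annotation (GRCm38, RefSeq), 699 pairs held 1391 genes, 6.97% of 19944. The mm9 pairs served 3 libraries, and the mm10 pairs served Cho replicate 2, because its peak list used positions of that build. By gene symbol, 474 pairs were found in both builds. Each region ran from 1000 bp outside the minus-strand TSS to 1000 bp outside the plus-strand TSS, and its value in a library was that of the highest peak with a summit inside. Single promoters, with no other protein-coding TSS within 10000 bp, were the comparison group, 15028 in mm9 and 14135 in mm10. In the mm9 pairs, 16 genes belonged to more than 1 pair, so 32 pairs were not independent of another.

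ATAC-Seq reads open chromatin from the places where the Tn5 transposase inserts sequencing adapters. The cells were primary chondrocytes, which make cartilage, isolated from the ribs of newborn mice. Cho, chondrocytes with no genotype named, had 2 libraries. WT and E160/E308_Del, littermates from a cross of heterozygous mice, had 1 library each, and the second carried a deletion on both alleles of E160 and of E308, enhancers upstream of Sox9 that were removed from the germ line in C57BL/6J mice with CRISPR/Cas9 and are absent from every cell, not from cartilage alone. How many animals went into a library is not given in the sources used here, so a comparison of WT with the deletion library compares 2 libraries and not the genotypes. The study's methods call the ATAC-Seq replicates biological, without saying how they were separated.

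Most promoters initiate transcription in both directions, but only some drive a stable protein-coding transcript each way. Where they do, a single nucleosome-free stretch usually serves both genes. Such promoters are typically CpG islands without a TATA box and are known for housekeeping genes, above all for those of DNA repair, mitochondria and core histones. An open promoter in bulk cells can mean more open cells or more open chromatin per cell, and these cannot be told apart here.

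The DNA between the TSSs of 11 pairs is shown because the results below turn on these regions. The first 7 held a peak in all 4 libraries and include textbook pairs, and the last 4 held none in any library. All are on the plus strand of NCBIM37, run from the base after the minus-strand TSS to the base before the plus-strand TSS, and overlap no annotated exon of a protein-coding gene. Capitals mark the motifs, which were searched on both strands. They were the SP1 and KLF letters GGGCGG, the NF-Y letters CCAAT, the ETS letters CCGGAAG, the NRF1 letters GCGCATGC and the YY1 letters AAGATGGC. The others were the CRE, TGACGTCA, the E-box, CACGTG, the TATA box, TATAAA, and the AP-1 letters, TGACTCA. No motif contains another.
Tctn3-Entpd1, chr19:40686724-40686855: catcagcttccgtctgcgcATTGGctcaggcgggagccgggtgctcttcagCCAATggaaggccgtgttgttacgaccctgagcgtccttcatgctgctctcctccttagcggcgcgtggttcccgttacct
Elp4-Immp1l, chr2:105744722-105744794: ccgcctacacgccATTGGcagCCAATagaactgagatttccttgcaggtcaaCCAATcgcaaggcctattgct
Wrap53-Trp53, chr11:69393758-69393860: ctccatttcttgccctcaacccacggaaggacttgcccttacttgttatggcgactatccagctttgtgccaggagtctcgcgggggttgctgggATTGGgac
Brca1-Nbr1, chr11:101413270-101413462: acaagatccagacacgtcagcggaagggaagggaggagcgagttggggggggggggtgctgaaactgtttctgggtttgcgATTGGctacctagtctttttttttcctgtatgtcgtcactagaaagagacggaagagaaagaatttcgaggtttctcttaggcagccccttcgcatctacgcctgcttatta
Mrps12-Sars2, chr7:29526840-29527009: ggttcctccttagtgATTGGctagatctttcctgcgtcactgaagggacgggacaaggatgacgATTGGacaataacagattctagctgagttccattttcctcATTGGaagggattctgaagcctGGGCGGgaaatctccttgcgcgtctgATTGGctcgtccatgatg
Ndufaf2-Ercc8, chr13:108948820-108948924: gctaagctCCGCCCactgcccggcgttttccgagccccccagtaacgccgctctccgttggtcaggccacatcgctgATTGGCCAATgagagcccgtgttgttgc
Hist1h2ah-Hist1h2bk, chr13:22127513-22127689: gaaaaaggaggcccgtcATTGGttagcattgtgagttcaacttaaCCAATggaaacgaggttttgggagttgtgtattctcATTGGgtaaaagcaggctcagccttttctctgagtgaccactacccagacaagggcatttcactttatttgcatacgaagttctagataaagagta
Rnf151-Rps2, chr17:24855003-24855060: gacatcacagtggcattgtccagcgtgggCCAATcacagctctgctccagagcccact
Plcz1-Capza3, chr6:139989979-139990045: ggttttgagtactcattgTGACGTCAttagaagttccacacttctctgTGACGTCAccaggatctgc
Zfp558-Mbd3l1, chr9:18282713-18282822: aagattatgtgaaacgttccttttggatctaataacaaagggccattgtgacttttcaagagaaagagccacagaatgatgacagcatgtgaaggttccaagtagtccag
Bhmt2-Dmgdh, chr13:94444258-94444387: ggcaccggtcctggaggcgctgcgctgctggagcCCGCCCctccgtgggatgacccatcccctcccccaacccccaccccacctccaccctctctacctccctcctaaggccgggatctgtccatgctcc
CCAAT, or ATTGG on the other strand, stood in all 7 of the printed pairs with peaks, and in 1 of the 4 without, which were not picked to be typical. A peak here is one anywhere in the region. At Wrap53-Trp53 and Brca1-Nbr1 the highest summit lay outside the printed DNA in every library. In 300 bases around the midpoint 42.6% of all pairs held these letters. Pairs with and without them had a peak about as often, 95.5% and 94.5% in Cho replicate 1 and 97.3% and 95.4% in WT. Plcz1-Capza3 held 2 copies of the palindrome TGACGTCA, and Zfp558-Mbd3l1 held none of the letters searched. A match is a run of letters, not a site shown to be bound.

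The lists held 76242 peak intervals and 148330 for Cho replicates 1 and 2, 90971 for WT and 169591 for the deletion library. The lists give no read totals. From their background level, depth was between 4622 tags per Mb in WT and 20816 in Cho replicate 2. Chondrocyte marker promoters with a peak numbered 5 of 12 in Cho replicate 1 and 11 of 12 in each other library, none of the 3 blood and 2 keratinocyte marker promoters had a peak in any library, and 3 or 4 of the 4 fibroblast or osteoblast marker promoters did. Of 4 skeletal muscle markers, Myod1 alone had a peak, in every library but Cho replicate 1, and 1 or 2 of 3 endothelial markers had a peak in each library. Cho replicate 1 stood apart. It used 1 constant background where the other lists used local backgrounds, and across bidirectional promoters its fold enrichment ranked unlike that of the other lists, with Spearman's rho between 0.19 and 0.37 (457 to 748 pairs), against 0.79 to 0.84 among the other 3 lists (465 to 758 pairs). For summit pileup, the number of fragments piled at the summit, the same rhos were 0.75 to 0.78 and 0.88 to 0.93. These are descriptions across regions that share depth and base composition within a library.

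Nearly every bidirectional promoter region held a peak. A peak lay in 749 of 789 regions in Cho replicate 1 (94.9%, 95% exact binomial interval 93.2% to 96.4%), against 56.5% of all autosomal protein-coding promoters. In Cho replicate 2 it was 669 of 699 (95.7%, 93.9% to 97.1%), against 64.1% of all promoters. In WT it was 759 of 789 (96.2%, 94.6% to 97.4%), against 59.7%. In the deletion library it was 767 of 789 (97.2%, 95.8% to 98.2%), against 65.4%. Single promoters had a peak in 52.6%, 60.6%, 55.7% and 62.1% of regions, in the same order of libraries. The share of bidirectional promoters was higher in each of the 4 libraries, by 38.3 ± 3.72 percentage points (mean and SD, n = 4 libraries), with p = 0.13 in an exact two-sided sign-flip permutation test over libraries, the smallest p that 4 libraries allow. Intervals cover counting error only. A bidirectional region counts a peak near the TSS of either gene, while a single region has the TSS of a single gene. The unit compared thus favours the pairs, also for the highest peak of a region. How much of the difference this makes was not tested.

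**Figure D1:**
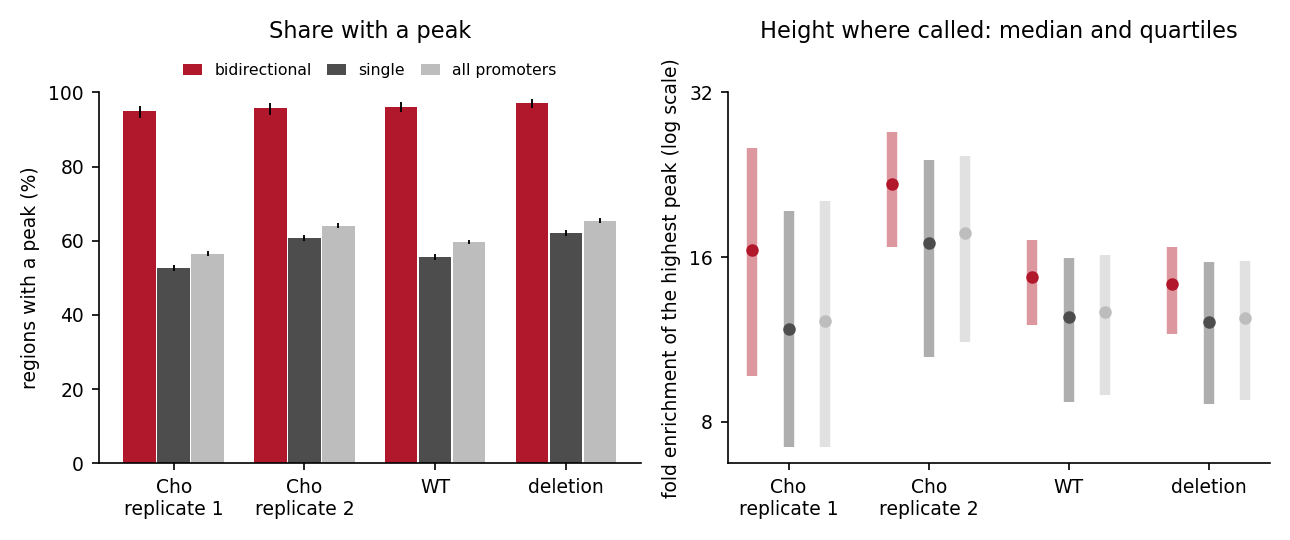
Left, share of regions with a peak (%), with 95% exact binomial intervals as bars, for bidirectional promoters, single promoters and all autosomal protein-coding promoters in each library. Right, fold enrichment of the highest peak where a peak was called (log scale), with the median as a point and the quartiles as a bar. Bidirectional promoters stood at 94.9% to 97.2% in the 4 libraries and single promoters at 52.6% to 62.1%.

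Base composition differed between the kinds of promoter, and the gap in the share with a peak was smaller than over all promoters in the CpG-rich class and larger in the CpG-poor class. The median ratio of observed to expected CpG in 500 bases was 0.83 at bidirectional midpoints and 0.54 at single TSSs, and the GC content was 62.4% and 56.6%. With a ratio of 0.6 or more called CpG-rich, 87.1% of bidirectional and 46.1% of single promoters were CpG-rich. Among CpG-rich promoters of the 3 mm9 libraries, the share with a peak was 98.3% against 89.3% in Cho replicate 1, 98.98% against 92.3% in WT and 99.6% against 96.4% in the deletion library, bidirectional first, a mean difference of 6.27 ± 2.91 points (SD, n = 3 libraries; the exact sign-flip permutation test cannot go below p = 0.25, which it gave). Among CpG-poor promoters, 74, 79 and 83 of 102 bidirectional regions had a peak (72.5%, 77.5% and 81.4%), against 21.3%, 24.4% and 32.8% of 8105 single promoters, in that order. The bidirectional share was thus the higher in both classes in each of these libraries. The classes are not strictly alike, because the window of a pair was centred on the midpoint and not on a TSS. At the 81 pairs with TSSs more than 500 bp apart it reached neither TSS. How many of the 102 CpG-poor pairs were of this kind was not counted.

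Where a peak was called, it was higher at bidirectional promoters. Fold enrichment, the summit pileup over its background with 1 added to each, had a median of 16.5 at bidirectional and 11.8 at single promoters in Cho replicate 1. The medians were 21.8 and 17.0 in Cho replicate 2. They were 14.7 and 12.4 in WT and 14.3 and 12.2 in the deletion library. The ratio of medians was 1.39, 1.28, 1.18 and 1.17, and the difference on the log2 scale was 0.33 ± 0.12 (mean and SD, n = 4 libraries; exact sign-flip permutation p = 0.13, the smallest possible). The local background at the bidirectional peaks was raised too. Its median over the library background was 4.67 for Cho replicate 2, 4.22 for WT and 4.14 for the deletion library, against 2.88, 3.12 and 3.04 at single promoters. With the pileup set over the library background instead, an alternative chosen after seeing the data, the difference was 0.58 ± 0.24 on the log2 scale. Bidirectional peaks were also wider, with a median of 989 against 828 bp in Cho replicate 1, 906 against 706 bp in Cho replicate 2, 424 against 346 bp in WT and 553 against 435 bp in the deletion library.

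Summits gathered near the midpoint of the pair and near its TSSs. At 61.1% to 62.8% of called pairs, depending on the library, the highest summit lay within 100 bp of it, against 49.3% to 55.8% of single summits within 100 bp of their TSS. With the minus-strand gene to the left, the highest summit had a median offset from the midpoint of the TSSs of -1 and -3.5 bp for Cho replicates 1 and 2, -4 bp for WT and -1.5 bp for the deletion library. The share on the side of the minus-strand gene was between 50.5% and 52.6%, and the interval of each library included equal sides. Which gene is on the minus strand is arbitrary, so these signed values would be near 0 and near equal wherever the summits lay, and they say nothing of how central the summits were. Without regard to side, the median distance from the midpoint was 64 to 69.5 bp, and that of single summits from their TSS was 84 to 103 bp. To the nearer TSS of the pair it was 64 and 45 bp for Cho replicates 1 and 2, 47 bp for WT and 46 bp for the deletion library. Where the TSSs are close together, a summit near either is also near the midpoint. These distances therefore cannot tell centring on the midpoint from a place at a TSS. Single summits lay upstream of their TSS in 54.5%, 48.9%, 60.2% and 58.2% of regions. Cho replicate 2 differed from the other lists here, with a median single offset of 2 bp against -16, -26 and -23 bp, and its TSSs came from another annotation.

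**Figure D2:**
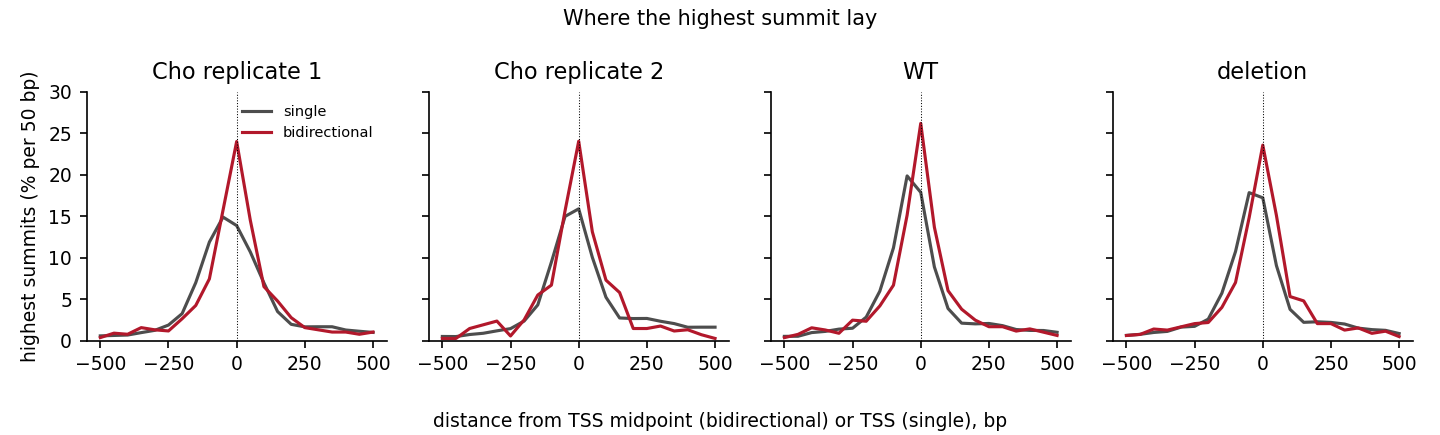
Share of highest summits per 50-bp bin (y axis, %) by distance in bp from the midpoint of the TSSs for bidirectional promoters and from the TSS, oriented by strand, for single promoters (x axis), in each library. The bidirectional curves peak at 0 in all 4 panels, and the single curves of the 3 mm9 libraries peak upstream of 0.

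About as many summits fell between the TSSs as outside them. The summit lay between them at 396 of 749 called pairs in Cho replicate 1 (52.9%, interval 49.2% to 56.5%), 300 of 669 in Cho replicate 2 (44.8%, 41.0% to 48.7%), 427 of 759 in WT (56.3%, 52.6% to 59.8%) and 401 of 767 in the deletion library (52.3%, 48.7% to 55.9%). The span between the TSSs made up only 8.81%, 7.34%, 8.81% and 8.78% of the region on average. Of the 759 WT summits, another 261 (34.4%) lay in an annotated UTR, 17 (2.24%) in a coding exon, 12 in another exon and 42 (5.53%) in an intron or past the end of the gene. The called interval reached over both TSSs at 92.0% and 90.3% of pairs for Cho replicates 1 and 2, 74.3% for WT and 78.2% for the deletion library.

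The distance between the TSSs, with a median of 141 bp in mm9 (quartiles 73 and 271, range 1 to 987) and 102 bp in mm10, went with how often the summit fell inside it. A wider span takes up more of the region and so can hold more summits by its width alone. No expected share per class was computed. In WT the share between the TSSs was 25.2% of 107 called pairs at distances up to 50 bp and 41.4% of 174 from 50 to 100 bp. It was 67.5% of 209 from 100 to 200 bp, 67.3% of 110 from 200 to 300 bp and 76.8% of 82 from 300 to 500 bp. Beyond 500 bp it was 64.9% of 77 pairs. In 3 of the lists peak height varied little with the distance. Across the 6 distance classes the median fold enrichment ran from 20.1 to 23.0 in Cho replicate 2, 13.3 to 15.5 in WT and 12.4 to 14.9 in the deletion library. In Cho replicate 1 it was 10.8 up to 50 bp and 12.2 from 50 to 100 bp, against 18.4 to 21.3 in the wider classes.

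**Figure D3:**
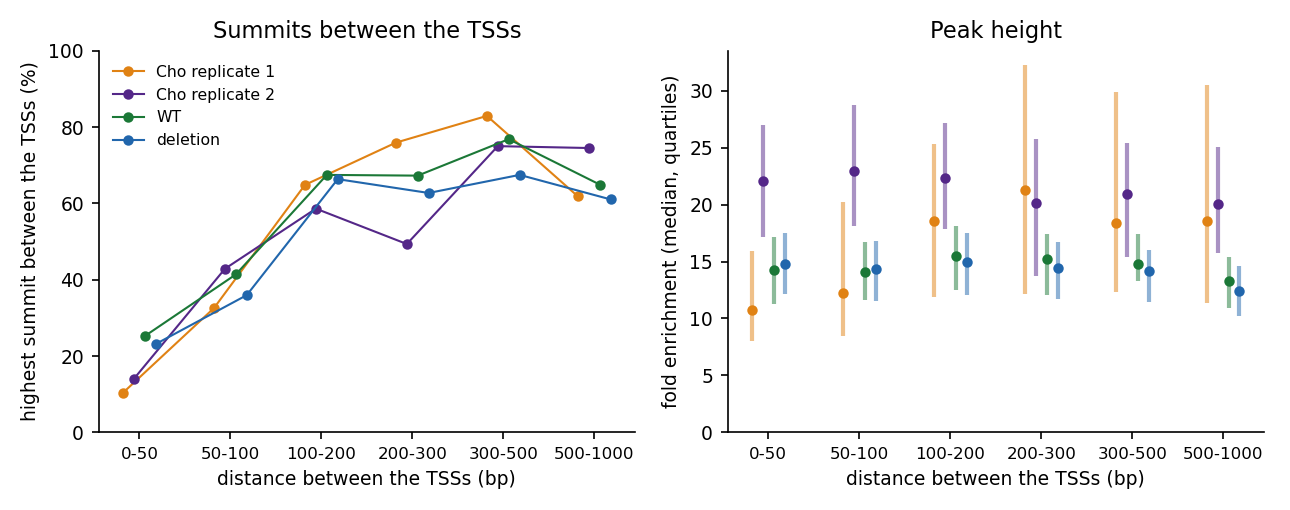
Left, share of called pairs with the highest summit between the TSSs (%) by class of TSS distance (bp), 1 line per library. A wider span takes up more of the region. Right, fold enrichment of the highest peak, with the median as a point and the quartiles as a bar. The share rose from 10.4% to 25.2% at distances up to 50 bp to 58.6% to 67.5% from 100 to 200 bp, and in Cho replicate 1 the median peak height was 10.8 and 12.2 in the nearest classes against 18.4 to 21.3 in the others.

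Motif letters differed in frequency between the kinds of promoter. In 300 bases (250 upstream and 50 downstream of a TSS), GGGCGG stood in 68.2% of the promoters of paired genes, 41.8% of single promoters and 43.7% of all promoters. CCGGAAG, the ETS letters, stood in 28.2%, 8.95% and 10.9%. AAGATGGC, the YY1 letters, stood in 8.13%, 2.74% and 3.31%, and GCGCATGC, the NRF1 letters, in 6.98%, 2.93% and 3.35%. TATAAA was rarer in paired genes, at 4.48%, 14.4% and 13.5%, as was TGACTCA of AP-1, at 1.98%, 4.71% and 4.40%. TGACGTCA stood in 4.29%, 2.23% and 2.31%, CACGTG in 11.1%, 7.44% and 7.78%, and CCAAT in 42.4%, 37.3% and 37.6%. Several of these gaps were smaller within CpG-rich promoters. There GGGCGG stood in 73.2% of single promoters and 72.1% of those of paired genes, CACGTG in 11.0% and 11.6%, TGACGTCA in 3.91% and 4.73%, TGACTCA in 2.47% and 1.96%, TATAAA in 6.15% and 3.71%, and GCGCATGC in 5.56% and 7.71%. CCGGAAG, at 15.8% and 31.1%, AAGATGGC, at 3.84% and 8.36%, and CCAAT, at 36.6% and 43.1%, kept wider gaps. The paired windows overlap where the TSSs are close, so a stretch can count under both genes.

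Pairs with more copies of CCAAT had higher peaks by summit pileup, and so did single promoters. This count was looked at after the letters above had been seen. In 300 bases around the midpoint, 453 pairs held no copy on either strand, 179 held 1, 87 held 2 and 70 held 3 or more. The median summit pileup over library background rose along these classes from 21.2 to 30.0, 35.8 and 47.5 in Cho replicate 1. It ran 91.5, 110, 122 and 136 in WT and 75.1, 89.4, 96.6 and 104 in the deletion library. Among single promoters the WT medians were 69.3, 80.4, 108 and 130. In fold enrichment the WT medians of the pairs were 14.0, 15.4, 16.4 and 15.8, so there the last class was not the highest. Those of the deletion library were 13.8, 15.4, 15.7 and 14.9, with the last class below that with 1 copy. In Cho replicate 1 they rose throughout, from 12.7 to 27.9. At least 3 copies stood in 8.71% of the promoters of paired genes, 2.91% of single promoters and 3.47% of all promoters. The classes also differ in base composition, whose part was not tested.

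**Figure D4:**
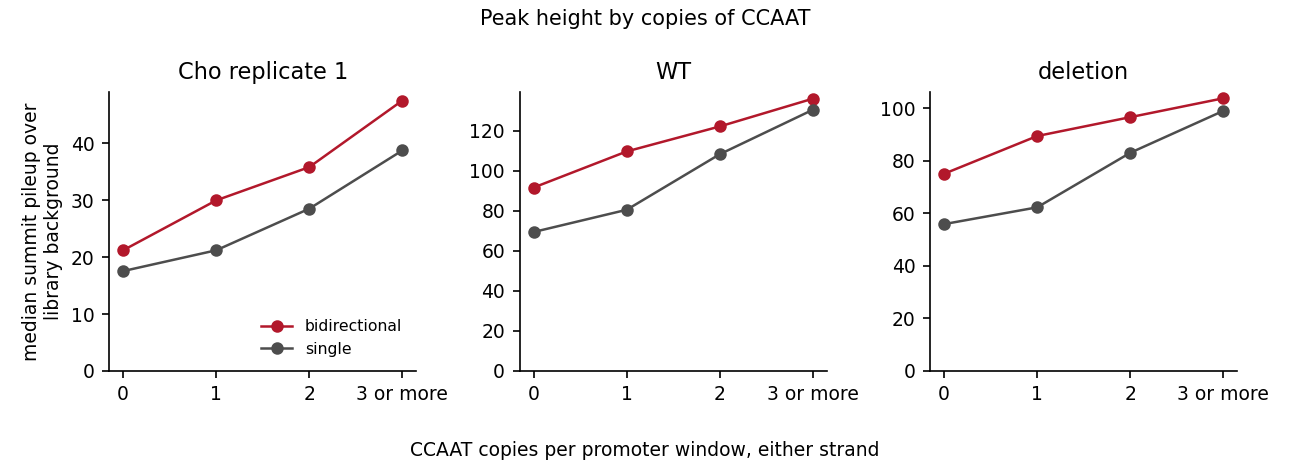
Median summit pileup over library background (y axis, a ratio) by the number of CCAAT copies on either strand in a 300-base promoter window (x axis), for bidirectional and single promoters in the 3 mm9 libraries. The medians of the bidirectional promoters rise from 21.2 to 47.5 in Cho replicate 1, 91.5 to 136 in WT and 75.1 to 104 in the deletion library.

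By mean percentile, the leading 6 pairs joined genes of varied functions. This measure exists only for the 456 pairs found in both builds with a peak in all 4 libraries. Hjurp-Trpm8, outside this set, had the highest fold enrichment of all pairs in Cho replicate 1, at 153. It had 18.5 for WT and 14.7 for the deletion library. The highest mean percentile of fold enrichment over the 4 libraries was that of Tctn3-Entpd1, which shares the first sequence above and joins a protein of the ciliary transition zone to an ectonucleotidase. Its fold enrichment was 41.8 and 39.0 for Cho replicates 1 and 2, 22.8 for WT and 26.7 for the deletion library, and the values of the pairs below are in this order. Atp7b-Alg11, a copper-transporting ATPase and a mannosyltransferase of N-glycan synthesis, had 48.6, 35.9, 24.99 and 20.6. Acad8-Thyn1, whose first gene encodes a dehydrogenase of valine breakdown, had 39.3, 39.0, 23.3 and 21.9. The other 3 of the leading 6 were Rpa3-Gm16039, with a subunit of the single-stranded DNA binding complex RPA, Elp4-Immp1l, with a subunit of Elongator and a mitochondrial peptidase, and 6030458C11Rik-Drosha, with the nuclease that cuts primary microRNAs. Their fold enrichments lay between 20.3 and 50.7 in every library. In WT all 6 summits lay between the TSSs.

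The textbook pairs that met the rule had a peak in the region in all 4 libraries. Atm-Npat, a kinase of the DNA damage response and an activator of histone genes, had fold enrichments of 42.2, 26.6, 19.0 and 15.8 in that order. Mcm4-Prkdc, a replicative helicase subunit and the catalytic subunit of DNA-dependent protein kinase, had 31.7, 24.6, 13.6 and 14.1. Mrps12-Sars2, a mitochondrial ribosomal protein and the mitochondrial seryl-tRNA synthetase, had 19.4, 28.8, 16.9 and 17.4, with its summit within 38.5 bp of the midpoint in each library. In a pair of them the summit lay away from the shared DNA in all 4 libraries. At Brca1-Nbr1, a DNA repair gene and an autophagy receptor gene, with 25.3, 21.7, 15.5 and 13.2, the summit lay 648 to 696 bp from the midpoint inside Nbr1. At Wrap53-Trp53, a telomerase cofactor and the tumour suppressor p53, with 13.9, 19.2, 14.0 and 13.0, it had offsets of -971, -937, -995 and -1000 bp, inside Wrap53. There the called interval of this peak reached neither TSS in any library.

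Gene families took part in pairs to different degrees. Of replication-dependent histone genes, 27 of 67 (40.3%) were in pairs, as were 27 of 103 DNA repair and replication genes (26.2%), 24 of 98 oxidative phosphorylation genes (24.5%), 16 of 77 mitochondrial ribosomal protein genes (20.8%), 12 of 58 splicing genes (20.7%), 16 of 85 chaperone genes (18.8%), 6 of 36 aminoacyl-tRNA synthetase genes (16.7%) and 6 of 51 proteasome genes (11.8%), beside 7.29% of all genes. Zinc finger genes, with 19 of 362 (5.25%), and the cartilage list, with 3 of 78 (3.85%), were below that share. In WT every pair of the first 8 lists had a peak, as did 16 of 17 zinc finger pairs, beside 96.2% of all bidirectional promoters and 59.7% of all promoters. In Cho replicate 1 the counts were 11 of 14 histone pairs, 15 of 16 mitochondrial ribosomal protein pairs, 16 of 17 zinc finger pairs and every pair of the other 6 lists, beside 94.9% of all bidirectional promoters. These shares are near those of the bidirectional promoters as a whole, except for the histone pairs in Cho replicate 1. DNA repair pairs had a median fold enrichment of 16.5, 26.1, 15.5 and 15.8, at the 50th, 70th, 59th and 66th percentile of the pairs after rounding. Ndufaf2-Ercc8, an assembly factor of respiratory complex I and a nucleotide excision repair gene, stood high among them with 30.0, 33.5, 18.2 and 18.2. Trmt6-Mcm8 had 33.8, 33.2, 21.6 and 19.2. Among mitochondrial ribosomal pairs with a peak in every library, Mrpl50-Zfp189 had the highest mean percentile, with 51.1, 37.7, 21.1 and 18.8. Ptcd2-Mrps27, with 23.6, 38.8, 19.4 and 18.5, was higher in Cho replicate 2, and another pair of the list was highest in the deletion library. Atp5h-Kctd2 of oxidative phosphorylation had 16.9, 36.4, 20.1 and 20.1, and among splicing pairs Cdc26-Prpf4 had 22.8, 31.6, 21.7 and 17.7. The proteasome pair Mrpl32-Psma2 had 22.8, 27.4, 12.4 and 15.5, and the chaperone pair Tbccd1-Dnajb11 had 32.1, 28.9, 15.6 and 16.7.

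The histone pairs were low in fold enrichment but not in pileup. They numbered 14, 13 of them with a core or linker histone gene on either side, and 13 lay on chromosome 13. The median fold enrichment of the list was 7.66 for WT and 6.15 for the deletion library, at percentile 6.19 and 2.93 of the bidirectional promoters, and 12.9 in Cho replicate 2, at percentile 11.5 (9 pairs matched). In Cho replicate 1, with its constant background, 11 of 14 were called with a median of 20.7, at percentile 64.8. The background around the histone summits was 12.0 times the library background for WT, 12.2 times for the deletion library and 7.47 times for Cho replicate 2. Over the library background, their pileup was 117 for WT, 86.2 for the deletion library and 106 for Cho replicate 2, at percentile 62.0, 54.1 and 46.0. Hist1h2ah-Hist1h2bk, whose span with 3 CCAAT copies is printed above, had a fold enrichment of 27.9, 20.7, 10.6 and 7.91 and a pileup over library background of 47.5, 147, 130 and 94.2. Hist1h2ba-Hist1h2aa, named after its values were seen and encoding testis histone variants, was the reverse, with a WT fold enrichment of 16.3 and a pileup of 63.8 over library background. Histone genes are near-identical copies, so reads could be placed at the wrong copy.

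Of the cartilage list, the collagen IV pair Col4a4-Col4a3, basement membrane collagens of the kidney rather than cartilage collagens, had a peak in the deletion library alone, with a fold enrichment of 7.99. It was not among the pairs matched in mm10. The other entry, Polk-Col4a3bp, was taken in by its name and encodes a DNA polymerase and a ceramide transfer protein, with 50.3, 28.2, 17.4 and 16.4. The cartilage genes of the list were otherwise not in pairs.

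The pairs without a peak were few. In mm9, 20 pairs had none in Cho replicate 1, WT or the deletion library, and 745 had one in all 3. Of the 20, 17 were CpG-poor (85.0%), against 11.1% of the other 769 pairs. Of the 474 pairs found in both builds, 456 (96.2%) had a peak in all 4 libraries, 13 in some and 5 in none. The 5 were Rnf151-Rps2, Plcz1-Capza3, Zfp558-Mbd3l1, Bhmt2-Dmgdh and Kirrel2-Nphs1. Plcz1 and Capza3 act in sperm, Bhmt2 and Dmgdh in choline and methionine metabolism of the liver, and Kirrel2 and Nphs1 at the filter of the kidney. Their ratio of observed to expected CpG lay between 0.13 and 0.60. Rps2, a ribosomal protein gene, does not share that restriction, and at this pair the nearest WT summit lay 1956 bp from the midpoint towards Rps2, 926 bp past the edge of the region, with a fold enrichment of 11.1. Of the 20 pairs, this was the only one with a WT summit within 1000 bp of the region. The median distance from the midpoint to the nearest WT summit was 9.31 kb. In the deletion library Gm10594-4933409K07Rik, Gml-Hemt1, Il11-Tmem190 and Rnf151-Rps2 had a summit 122, 200, 389 and 777 bp past the region. In Cho replicate 1 Il11-Tmem190 and Rnf151-Rps2 had one 614 and 868 bp past it. Of the 13 pairs called in some libraries, and named after its values were seen, Duox2-Duoxa2, an oxidase of the thyroid and its maturation factor, had 5.49 and 7.09 for Cho replicates 1 and 2, 6.01 for the deletion library and no WT peak. A missing peak says only that none passed the threshold at this depth.

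Nearly all matched pairs were called in either Cho replicate, so their overlap could hardly be low. Of the 474 matched pairs, 96.4% were called in Cho replicate 1 and 98.5% in Cho replicate 2. All 457 matched pairs with a peak in Cho replicate 1 had one in Cho replicate 2 (100%, exact interval from 99.2%), against 91.2% of 7201 single promoters. From Cho replicate 2 back to Cho replicate 1 it was 97.9% of 467 pairs and 82.9% of 7921 single promoters. Of the 12780 single promoters compared, 56.3% were called in Cho replicate 1 and 62.0% in Cho replicate 2.

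In fold enrichment, WT and the deletion library had near-equal heights at bidirectional promoters. A peak was called in both at 758 of 789 pairs, in WT alone at 1, in the deletion library alone at 9 and in neither at 21. The log2 ratio of fold enrichment, deletion library over WT, had a median of -0.04 (exact interval -0.06 to -0.02) at the pairs, 0.03 at single promoters and 0.01 at all promoters, and quartiles at the pairs of -0.18 and 0.09. None of the 758 pairs reached a log2 ratio of 1 in either direction, beside 1.11% of 12725 promoters called in both libraries that were higher in the deletion library by that much and 0.0707% that were lower. With the pileup over library background the median was -0.33 at the pairs and -0.26 at all promoters.

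**Figure D5:**
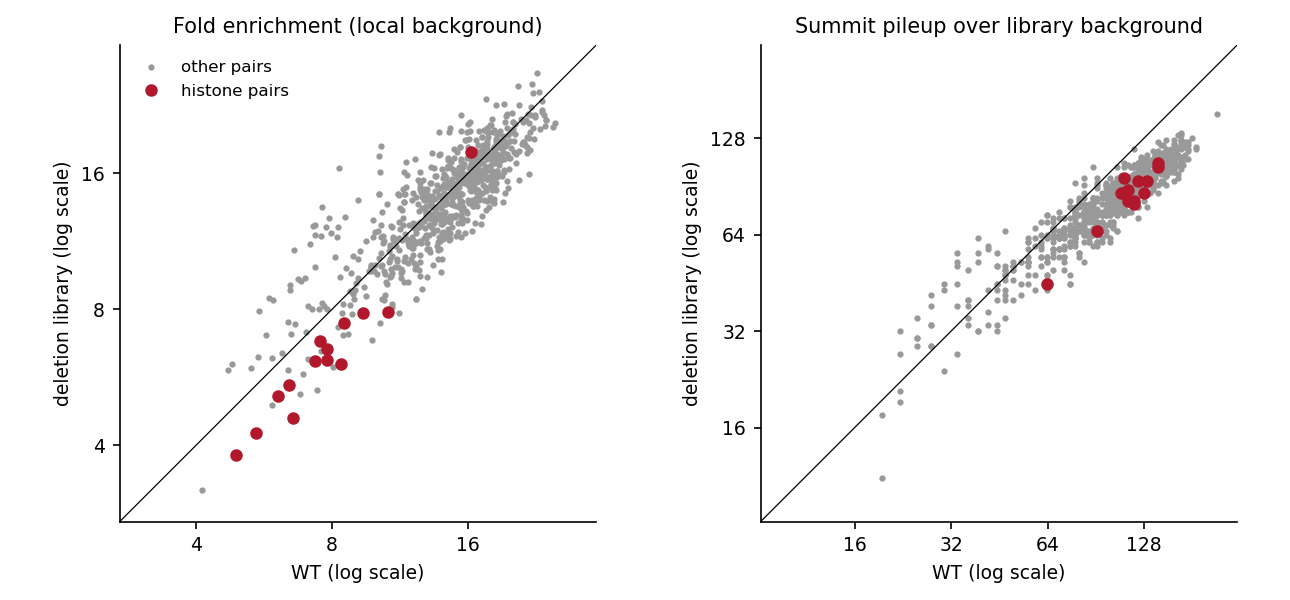
Each point is a bidirectional promoter called in WT (x axis) and in the deletion library (y axis), with the histone pairs in red and the line of equality, on log scales. Left, fold enrichment, which uses a local background, where 13 of the 14 histone pairs lie below most others. Right, summit pileup over library background, where they lie within the other pairs.

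The largest ratios belonged to low WT peaks. The highest was at Pecam1-Gm885, whose first gene encodes an adhesion molecule of endothelium, with a WT fold enrichment of 8.31, a deletion library value of 16.5 and a log2 ratio of 0.99. In pileup over library background its ratio was 0.50. Next were 1700101I19Rik-Fam123c (10.3 and 18.4), Gm3625-Itsn2 (7.60 and 13.5) and Sec24a-Sar1b (10.2 and 17.5), the last with both genes acting in COPII vesicles. From Pecam1-Gm885 on, the WT summit pileups of these pairs were only 11, 13, 12 and 14 fragments. At Gm3625-Itsn2 the highest summit lay 471.5 bp from the midpoint in WT and 65.5 bp in the deletion library. Its ratio thus compares different summits. The lowest ratios were at Ccdc92-Zfp664 (12.3 and 8.43, -0.54), listed as 2 pairs because 2 gene entries share the symbol Zfp664, at Fhod1-Slc9a5 (14.0 and 9.66, -0.53) and at Gm9900-Sh3bp5l (11.2 and 7.86, -0.52). Endothelial marker promoters with a peak were 2 of 3 in both libraries, namely Pecam1 itself and Tek, and Cdh5 had none. Tek too was higher in the deletion library, with 7.99 against a WT value of 4.41. Pecam1 was picked for its ratio, so Tek is the only separate marker called. Of 8324 single promoters called in both libraries, 112 were higher in the deletion library by a log2 ratio of at least 1. Lower by as much were 6. For Cho replicates 1 and 2, Tek had 9.71 and 12.2, above the deletion library, but Pecam1 had 7.18 and no peak. The part of such cells in the ratio of Pecam1-Gm885 was not tested. On chromosome 11, which carries Sox9, the 66 pairs called in both libraries had a median log2 ratio of -0.05. The nearest pair to Sox9, D11Wsu99e-D11Wsu47e, lay 902 kb downstream and had a WT value of 12.7 and a deletion library value of 14.4, with a log2 ratio of 0.19. It was named after its values were seen.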

How the data were processed

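The pairs and lists were chosen with earlier results of these data known. Per the study's methods and processing notes, the authors trimmed reads with fastp, aligned them with Bowtie2 2.4.4 to mm9, removed duplicates with Picard (2.20.7 in the notes), used SAMtools 1.9 and called peaks with MACS2 2.2.4 at a q-value of 0.05, 1 list per library. Each deposited peak carries a fold enrichment, the ratio of pileup and background at its summit after 1 is added to both. Beside it stand, as deposited, the −log10 p-value, the −log10 q-value and a score, which is the latter multiplied by 10 and cut to a whole number. The deposited summit position is the offset from the peak start. Cho replicate 2 held sequence names of GRCm38 and was read in that build, and nothing was converted. In GRCm38, 808 of 21887 genes had no strand and were left out of the pairs. Strand came from the RefSeq promoter table or else from GENCODE by symbol, and the sources were equal for 99.7% of 14519 genes with both.

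Pileups were solved from fold enrichment and p-value under a Poisson model (99.97% of entries in Cho replicate 1, 100% in the other lists) and the solution was tested on simulated data. Depth is the most frequent background over the smallest peak width. No filter on low values was used. The files are peak lists, so regions below the threshold have no value. Libraries were the units of the sign-flip test, and WT against the deletion library had no test. Intervals are exact binomial (Clopper-Pearson, 95%). Sequences and CpG came from NCBIM37, with 500 bases for CpG and 300 for motifs. Named pairs were the 6 of highest mean percentile, the 4 highest and 4 lowest deletion-over-WT ratios with a fold enrichment of at least 5, the pairs without a peak in any library, textbook pairs, the cartilage list and up to 3 per family list. Rankings by mean percentile took in only pairs found in both builds and called in every library. CCAAT copies, the distance of pairs to Sox9 and the nearest summit of pairs without a peak were looked at after values were seen. Alternatives covered threshold, region width, TSS distance, TSS source, comparison group, measure and libraries. Scripts ran in Python 3.11.15 with scipy 1.17.1, pandas 2.3.3, numpy 2.4.6 and matplotlib 3.10.9.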

Additional observations from a re-analysis of the deposited data

How the results depend on the processing

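Of 45 alternative values, 38 stayed within the spread of the main value. That spread was the SD over libraries, or the interval for the deletion ratio and the Cho overlap. None changed direction, which the shares of summits between the TSSs and of the Cho overlap could not do. With CpG-rich promoters only (3 libraries), the difference in the share with a peak was 6.27 points against 38.3. The log2 difference in height was 0.68 with the −log10 q-value and 0.58 with summit pileup over library background, against 0.33. The log2 ratio of the deletion library over WT was -0.33 with pileup over library background and -0.23 with Cho replicate 1 as the reference, against -0.04. The share of Cho replicate 1 pairs also called in Cho replicate 2 was 97.4% with 500 bp beyond each TSS and 97.9% with Cho replicate 2 as the base, against 100%. The causes of these moves were not tested. Leaving out either Cho replicate gave 36.9 to 39.3 points for the share, 0.28 to 0.32 for the log2 height and 51.1% to 53.8% for summits between the TSSs. The pileup measure, the set of promoters found in both builds and the offsets without a Cho replicate were added after seeing the data. No paired analysis was possible because replicate numbers exist for Cho alone, and the groups compared hold single libraries. Depth limits what a missing peak means, and WT was the shallowest list.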
